A study of Mus musculus with 33 samples.

Results

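The T cell antigen receptor and the naive T cell programme, as a set of 37 genes, were followed through every sample of a mouse single-cell RNA sequencing study of metastatic niches. The genes come from a list by function, drawn up with earlier results of these data known, and make up 37 of the 32285 genes in the count matrices. All 37 had at least 1 UMI (unique molecular identifier, 1 counted RNA molecule) in the cells kept. They were ordered by role: 8 chains of the T cell receptor and CD3 complex, 9 coreceptors and costimulatory receptors, 8 proximal signalling proteins, 8 transcription and chromatin factors, and 4 genes of naive homing and of the T cell membrane. In this design, injected tumour cells leave a biotin tag on the cells around them during overnight labelling, and each tissue is then sorted into biotin positive cells (tagged neighbours of the tumour cells) and biotin negative cells (the untagged rest). After intracardiac injection, bone (femurs and tibias), brain, liver and lung were each sorted into both fractions with 4 replicates, giving 8 groups and 32 samples sequenced from the 3′ end. After the injection labelled IIA, bone was sorted into both fractions with 6 replicates, giving 12 hashtagged samples in 1 pooled library sequenced from the 5′ end. The labels used here give no mouse strain, age or tumour line, and every sample came from an injected mouse, so the negative sort is untagged tissue of the same condition and not healthy tissue.

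An alpha beta T cell recognises peptide through the receptor chains encoded at the Tra and Trb loci, while gamma delta T cells carry Trdc in place of Trac. The receptor has no signalling tail of its own: CD3 chains and the zeta chain Cd247 are phosphorylated by the kinase Lck, recruit Zap70, and pass the signal through the adaptors Lat and Lcp2. Tcf7, Lef1 and Satb1 are nuclear factors of naive and resting T cells, and Ccr7 guides such cells into lymph nodes.

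The 4 promoter sequences printed next belong to the members on which the descriptions turn most: Lef1, Dapl1 and Satb1 had the lowest adjusted p-values for differences between replicate numbers, and Cd3d was also counted in neutrophils. Each is the 250 bases before the RefSeq gene start on GRCm38.p6, the build that mm10 names, written 5′ to 3′ on the strand of the gene. Of the 37 members, 24 had an entry among the 32536 RefSeq promoters. Capitals mark matches, on either strand, to 4 motifs spelled out as a TCF/LEF site (CTTTGA), a RUNX site (TGTGGT), an ETS site (CCGGAA) and a GC box (GGGCGG). No match of these motifs overlapped another in the 4 sequences.
Lef1 (chr3:131110073-131110322, plus strand): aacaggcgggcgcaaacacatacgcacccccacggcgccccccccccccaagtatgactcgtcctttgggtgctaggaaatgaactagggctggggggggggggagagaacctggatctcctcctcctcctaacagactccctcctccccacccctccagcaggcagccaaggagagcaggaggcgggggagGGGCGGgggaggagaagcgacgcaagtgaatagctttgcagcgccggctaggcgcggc
Dapl1 (chr2:59484403-59484652, plus strand): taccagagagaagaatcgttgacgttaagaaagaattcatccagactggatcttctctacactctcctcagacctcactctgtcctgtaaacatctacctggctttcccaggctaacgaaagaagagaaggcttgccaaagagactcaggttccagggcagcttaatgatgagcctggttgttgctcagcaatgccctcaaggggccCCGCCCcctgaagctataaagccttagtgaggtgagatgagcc
Satb1 (chr17:51833291-51833540, minus strand): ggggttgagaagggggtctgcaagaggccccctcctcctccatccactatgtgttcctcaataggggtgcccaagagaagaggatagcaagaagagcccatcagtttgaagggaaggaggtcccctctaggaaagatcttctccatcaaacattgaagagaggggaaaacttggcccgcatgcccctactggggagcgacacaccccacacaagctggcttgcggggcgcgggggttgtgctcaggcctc
Cd3d (chr9:44981536-44981785, plus strand): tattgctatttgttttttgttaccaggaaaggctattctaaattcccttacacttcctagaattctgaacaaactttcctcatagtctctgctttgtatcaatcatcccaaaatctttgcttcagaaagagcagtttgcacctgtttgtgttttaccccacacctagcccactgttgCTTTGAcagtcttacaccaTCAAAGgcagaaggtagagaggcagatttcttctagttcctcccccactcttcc
The Cd3d promoter held CTTTGA on both strands, Lef1 and Dapl1 held 1 GC box each, and Satb1 held none of the 4 words. The TCF/LEF word occurred in 6 of the 24 member promoters (Bcl11b, Cd3d, Fyn, Lcp2, Txk and Zap70) against 13.9% of all promoters of this length. The GC box occurred in 7 of 24 against 33.0%, the ETS word in 2 of 24 against 12.1% and the RUNX word in 1 of 24, Lck, against 14.0%. The RefSeq start of Lef1 lay 148 bases from its start in GENCODE. A match is only a match of letters, and says nothing of binding.

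The intracardiac matrices held 57065 barcodes, of which 55366 passed the filters on UMIs, genes and mitochondrial reads, with 94 to 3505 cells and 482617 to 44834665 UMIs per sample. The IIA library held 26666 barcodes, of which 22362 passed the filters and carried 1 clear hashtag, with 249 to 3480 cells and 2149784 to 27903856 UMIs per hashtagged sample. No annotation of cell types was used here: cells were clustered again and clusters were named from marker lists, and 20 of the 37 members are on the T cell list, so their presence in the T cell class is no finding. The T cell class held 4877 intracardiac cells in 5 clusters and 1004 IIA cells in 1 cluster. No NK cell class was separated in the IIA bone: at least 1 Trac UMI was in 29.1% of its T cell class against 62.0% of the intracardiac one (median depths 2066.5 and 3171 UMIs), and the summed NK cell markers were 1989 to 4610 CPM in the 6 negative IIA T cell samples, with 13 of 13 detected. T cells per sample ranged from 54 to 770 in the negative sorts of the intracardiac experiment but from 2 to 124 in the positive sorts, and from 4 to 15 in the IIA positive sort, so the positive T cells are thinly sampled. Of the 5 intracardiac T clusters, 1 of 125 cells also carried neutrophil transcripts and 1 of 85 cells carried B cell transcripts, so results on T cells were also computed without both. Samples with the same replicate number shared 0 cell barcodes in all 112 pairs, while 182 of 384 pairs with different numbers shared some, 325 shared barcodes in all, and no shared barcode had like counts in both libraries.

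Within the T cell class every member was detected, and the CD3 and alpha beta chains spread less from sample to sample than the naive genes, although Cd3g, Trbc1, Trbc2 and Trdc were among the members that differed between replicate numbers. Levels are CPM, the UMIs of a gene per 1000000 UMIs of the T cells of that sample, given as the lowest, median and highest of the 16 negative intracardiac samples. Because the 3′ and 5′ chemistries count transcripts differently and neither is scaled by length, levels are compared between samples for 1 gene. They are not compared between genes, apart from Cd3d beside Cd3e in neutrophils. Cd3d had 354, 799 and 964.5 CPM, Cd3e 345, 464 and 706, Cd3g 336, 657 and 948, and the zeta chain Cd247 had 82.6, 114 and 162. The constant regions Trac (283, 422 and 537 CPM), Trbc1 (297, 534 and 710) and Trbc2 (762, 1058 and 1351) each varied by less than 3 times between the extremes, whereas the delta chain Trdc spread from 20.3 to 314 CPM around 86.5. Trbc1 and Trbc2 are near-identical in sequence, so how their reads were divided depends on the authors' counting.

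Among coreceptors, Cd4, which binds MHC class II, had 39.0, 82.4 and 139 CPM. Cd8a and Cd8b1, the chains of the class I coreceptor, had 35.9, 79.9 and 201 CPM and 61.1, 161 and 359 CPM. The costimulatory receptors Cd28 (130, 237 and 355 CPM) and Icos (59.8, 161 and 305 CPM) differed in spread, Icos being the wider. The inhibitory scavenger-type receptors Cd5 (41.8, 86.0 and 154 CPM) and Cd6 (73.9, 112 and 211 CPM), the TNF receptor family member Cd27 (62.5, 109 and 189 CPM) and the adhesion receptor Cd2 (143, 231 and 341 CPM) spread over similar or smaller ranges than Icos.

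Of the proximal signalling genes, Lck, Zap70, Fyn and Lcp2 were among those that differed between replicate numbers. Lck had 111, 187 and 265 CPM, Zap70 45.6, 75.4 and 126, the adaptor Lat 141, 234 and 354, and Lcp2 (SLP-76) 89.0, 123 and 196. The Tec family kinase Txk had 203, 287 and 506 CPM, the Src family kinase Fyn 98.8, 164 and 240, Themis, needed for thymocyte selection, 43.1, 74.9 and 119, and the adaptor Skap1 194, 242 and 318. The T lineage factor Bcl11b had 143, 224 and 304 CPM. The other nuclear factors spread further: Tcf7 171, 296 and 525 CPM, Lef1 44.8, 193 and 388, Satb1 94.2, 294 and 668, Gata3, the type 2 factor, 45.6, 102 and 443, Ikzf2 (Helios) 58.3, 126 and 352, Rora 61.6, 176 and 594, and Tbx21 (T-bet) 1.52, 15.6 and 35.7. The widest were Ccr7 (13.5, 93.7 and 472 CPM) and Dapl1 (0, 56.7 and 211 CPM, with 1 sample at 0), while the membrane genes Ms4a4b (414, 816 and 1308 CPM) and Ms4a6b (245, 356 and 500 CPM) varied less. In the IIA bone, whose 5′ library is on its own scale, the 6 negative samples had Cd3e at 180.3, 268 and 307 CPM, Lck at 390.3, 429 and 435, Fyn at 571, 659 and 763, Tbx21 at 107, 157 and 171 and Ccr7 at 2.13, 25.4 and 53.8, again as lowest, median and highest.

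The intracardiac T cells fell into 3 main clusters with different members leading, a description of the cells that were clustered and not a test. In pooled CPM, cluster 3 (1518 cells) had Lef1 at 548, Satb1 at 761, Tcf7 at 538, Ccr7 at 477 and Dapl1 at 259. Cluster 24 (1360 cells) had Cd8a at 175, Ms4a4b at 1256 and Tbx21 at 43.8. Its summed NK cell markers were at 2506, against 222 in cluster 3 and 196 in cluster 22. Cd8b1 was at 281 in cluster 24 and 285 in cluster 3. Cluster 22 (1789 cells) had Icos at 423, Rora at 505, Gata3 at 242, Cd4 at 143 and Trdc at 259, with Cd8a at 8.36.

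Several members were as high in other classes as in T cells, which bears on every value summed over all cells. In NK cells of the intracardiac samples, pooled levels were 688 CPM for Txk (250% of the T cell level), 867 CPM for Ms4a4b (105%), 121 CPM for Tbx21 (676%), 240 CPM for Fyn (151%) and 189 CPM for Lck (101%). B cells had Ccr7 at 253 CPM (144% of the T cell level) and Satb1 at 244 CPM (70.9%), and dendritic cells had Ccr7 at 188 CPM. Plasmacytoid dendritic cells had Fyn at 328 CPM (207%) and Cd4 at 108 CPM (131%). Macrophages had Lcp2 at 188 CPM (150%) and Ms4a6b at 310 CPM (80.7%), monocytes Ms4a6b at 326 CPM, and alveolar macrophages Cd2 at 134 CPM and Rora at 75.4 CPM. In the IIA bone, B cell precursors had Lef1 at 502 CPM (244% of the T cell level) and stromal cells had Rora at 122 CPM (109%).

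**Figure D1:**
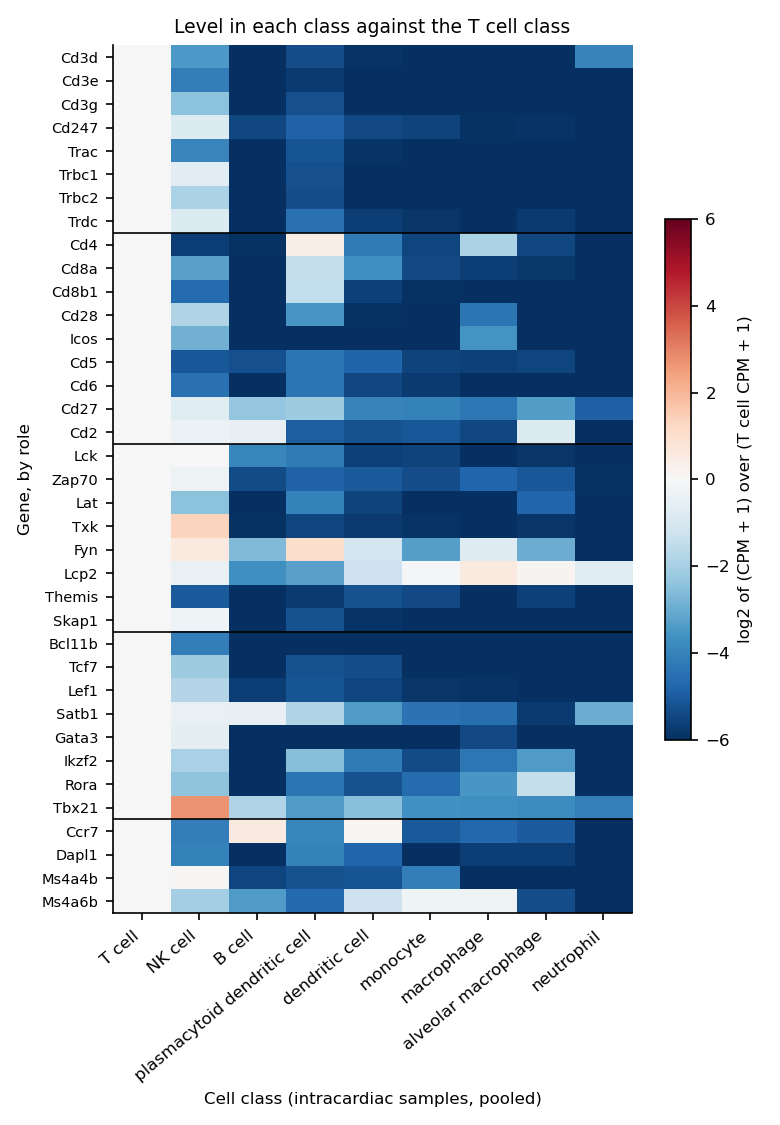
Level of each of the 37 genes (rows, grouped by role) in 9 cell classes of the pooled intracardiac samples (columns), as log2 of (CPM + 1) over (T cell CPM + 1). Blue is below and red above the T cell class; Txk and Tbx21 are red in NK cells, Ccr7 in B cells, Fyn and Cd4 in plasmacytoid dendritic cells and Lcp2 in macrophages, while Cd3e, Cd3g and Trac are blue in all 8 other classes.

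Cd3d stood apart from the other receptor chains in neutrophils, by an amount that differed with the replicate number. Pooled neutrophils of the intracardiac samples had Cd3d at 48.0 CPM but Cd3e at 0.949 CPM. A Cd3d UMI was found in 19.6% of 20656 neutrophils and a Cd3e UMI in 0.445%, against 80.6% and 73.4% of T cells, at median depths of 4957.5 and 3171 UMIs. In cell types that also lack a T cell receptor, the share with a Cd3d UMI was 1.44% of macrophages, 2.13% of monocytes (median depth 7666 UMIs) and 0.799% of B cells. In the IIA bone 14.97% of 8806 neutrophils had a Cd3d UMI and 0.0908% a Cd3e UMI. Over the 31 intracardiac samples with at least 50 neutrophils, neutrophil Cd3d ran from 2.57 to 145 CPM around a median of 19.7, and Cd3e from 0 to 4.31. By replicate number, Cd3d ran from 55.6 to 145 CPM in number 1 and 4.11 to 19.7 in number 2. It ran from 2.57 to 6.84 in number 3 and 18.5 to 64.9 in number 4. In number 3 a Cd3d UMI was in 0.960% to 3.66% of neutrophils. In IIA bone the negative replicates 1, 2 and 5 had Cd3d at 10.5 to 16.0 CPM, and 3, 4 and 6 at 73.1 to 192. The gene lies at chr9:44981786-44987339 on the plus strand, its start 1355 bases from that of Cd3g on the minus strand.

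Over all kept cells of a sample, the summed level of the 37 genes was lower in the positive sort in lung, liver and IIA bone without overlap, and overlapped between the sorts in intracardiac bone and brain. In lung the negative replicates 1 to 4 had 3571, 836, 2575 and 1868 CPM and the positive ones 698, 451, 597 and 810. In liver the negative samples had 1211, 897, 1121 and 788 CPM and the positive ones 692, 526, 529 and 284. In IIA bone the 6 negative samples had a lowest, median and highest of 476, 704 and 761 CPM, and the 6 positive ones 162, 277 and 411. Intracardiac bone had 1464, 418, 289 and 225 CPM in the negative and 724, 413, 148 and 220.0 in the positive sort, with replicate 1 the highest of both. Brain had 713, 779, 1446 and 783 CPM in the negative and 589, 1185, 2323 and 643 in the positive sort, with replicate 3 the highest of both. A sum over all cells does not by itself separate fewer T cells from less RNA in each. T cells made up 7.42% to 29.9% of kept cells in the negative and 0.337% to 6.93% in the positive lung samples, 6.39% to 8.67% and 0.483% to 2.42% in liver, and 3.45% to 7.16% and 0.419% to 3.21% in IIA bone. The median UMIs of a lung T cell were 2301 to 3656 per negative and 2343 to 4200 per positive sample. Within T cells alone the sums lay close together, from 7455 to 11340 CPM in the 16 negative and from 7309 to 11950 in the 13 positive intracardiac samples with at least 10 T cells. That class was named with 20 of the members on its marker list, so cells low in them may fall outside it. Like sums in both sorts are therefore no separate evidence on RNA per T cell. In IIA bone the 1 positive sample with at least 10 T cells had 5585 CPM within T cells, below the 8524 to 9829 of the 6 negative ones. The other positive samples, replicates 1, 2, 3, 4 and 6 with 4 to 8 T cells each, had 8029, 1650, 10061, 7587 and 8910 CPM. Neutrophil markers in the T cells of the sample at 5585 summed to 102526 CPM, against 27321 to 57216 in the negative ones.

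**Figure D2:**
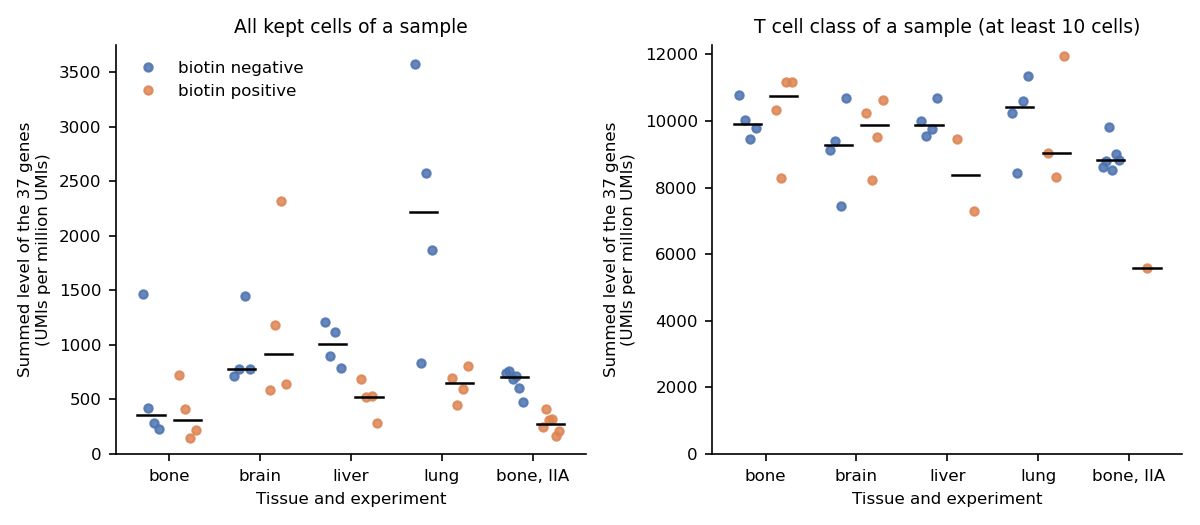
Summed level of the 37 genes in CPM (y axis) by tissue (x axis) for biotin negative (blue) and positive (orange) samples, 1 point a sample with a line at the group median. The left panel, over all cells, shows lung positive samples between 451 and 810 against 836 to 3571 in the negative sort; the right panel, over T cells of samples with at least 10, shows all intracardiac samples between 7309 and 11950.

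In lung, 33 of the 37 genes were lower in all cells of the positive than of the negative sort, and none was higher. All 37 fold changes were negative after TMM scaling of the libraries, with a median log2 fold change of -2.88 against -0.04 over all 12331 genes tested, and 16 members lay lower without overlap between the sorts, as did 3.93% of all genes tested. Called lower were 7 of 8 receptor chains, 8 of 9 coreceptors, 7 of 8 signalling genes, 7 of 8 nuclear factors and all 4 homing and membrane genes. Of all genes tested, 6.8% were called lower (edgeR's quasi-likelihood test, Benjamini-Hochberg adjusted p under 0.05). The members not called were Cd3g (-2.71, adjusted p = 0.0583), Rora (-0.26), Lcp2 (-0.06) and Cd2 (-0.07). The signs of Lcp2 and Cd2 turn on the scaling: in CPM, without TMM, Lcp2 had 131 ± 3.38 in the positive and 116 ± 14.0 in the negative sort and Cd2 74.6 ± 24.6 and 68.0 ± 37.6 (mean and SD, n = 4 each).

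Cd8a had 12.96, 3.23, 15.4 and 13.2 CPM in the negative replicates 1 to 4 and 1.60, 0.379, 1.32 and 0.681 CPM in the positive ones. Every positive value was below every negative one, and the log2 fold change was -3.68 ± 0.57 (SE, n = 4 against 4, edgeR adjusted p = 0.00452). Its partner Cd8b1 fell by 3.35 ± 0.59 on the log2 scale (edgeR adjusted p = 0.00700). Cd4 had 23.9, 6.71, 24.1 and 16.0 CPM in the negative and 2.54, 0.799, 2.79 and 5.45 in the positive sort, again without overlap (log2 fold change -2.90 ± 0.58, edgeR adjusted p = 0.0117). Icos had 78.7, 18.4, 54.2 and 37.4 CPM against 7.51, 0.799, 4.41 and 9.76 (-3.31 ± 0.69, edgeR adjusted p = 0.0137). Negative replicate 2 was the lowest of its sort for each of these 4 genes.

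Among receptor chains, Cd247 (-3.13 ± 0.67) and Trbc1 (-3.14 ± 0.69) had the lowest adjusted p in lung, 0.0152 and 0.0159 by edgeR's test. Cd3e had 121, 25.2, 130.0 and 76.1 CPM in the negative and 10.0, 1.60, 16.0 and 22.5 in the positive sort, and Trac 111, 27.4, 88.1 and 70.9 against 9.52, 1.35, 8.23 and 23.6. Both chains were separated between the sorts, the nearest values being those of negative replicate 2 and positive replicate 4. The signalling adaptor Lat had 70.1, 15.9, 53.5 and 42.8 CPM against 9.19, 7.61, 7.05 and 15.2 (-2.44 ± 0.41, edgeR adjusted p = 0.00594), and the kinase Txk 147, 17.2, 62.6 and 43.8 against 11.6, 2.65, 8.97 and 11.3. Tcf7 had 88.8, 27.1, 55.7 and 36.9 CPM against 1.72 to 10.7 (-3.25 ± 0.56, edgeR adjusted p = 0.00633). The membrane gene Ms4a6b, which monocytes carry too, changed less, by -1.55 ± 0.30, with 1 positive sample above the lowest negative one. The naive genes Dapl1 (-4.10 ± 1.09) and Lef1 (-3.75 ± 0.88) had the largest fold changes of the set, with negative replicate 1 far above the rest in both: Lef1 had 109, 17.1, 22.2 and 13.7 CPM in the negative sort.

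Other genes of the pathway moved in the same comparison. Of 44 further genes of receptor signalling, 19 were lower and 2 higher in the positive lung (median -0.77), among them the adaptor Trat1 (-3.84), the receptor Cd96 (-3.40) and Sh2d1a (SAP, -3.03). Of 20 further naive and resting genes 12 were lower and none higher, led by Nsg2 (-3.75), and of 30 effector and memory genes 13 were lower and 1 higher, led by Klrg1 (-3.64). Markers of other cells moved with them: 10 of 12 tested NK cell markers and 6 of 12 B cell markers were lower, 3 of 13 monocyte markers were lower and 1 higher, 6 of 16 macrophage markers were higher, and 0 of 15 neutrophil markers were called. Their part in the members' difference was not tested. The count of 33 fell to 12, 14 and 17 when negative replicates 1, 3 or 4 were left out in turn (2.02%, 2.63% and 2.39% of all genes called lower), and to 16 and 14 when positive replicates 1 or 3 were (2.91% and 3.39%), with the members' median between -3.41 and -2.46 in every case of 1 sample left out.

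**Figure D3:**
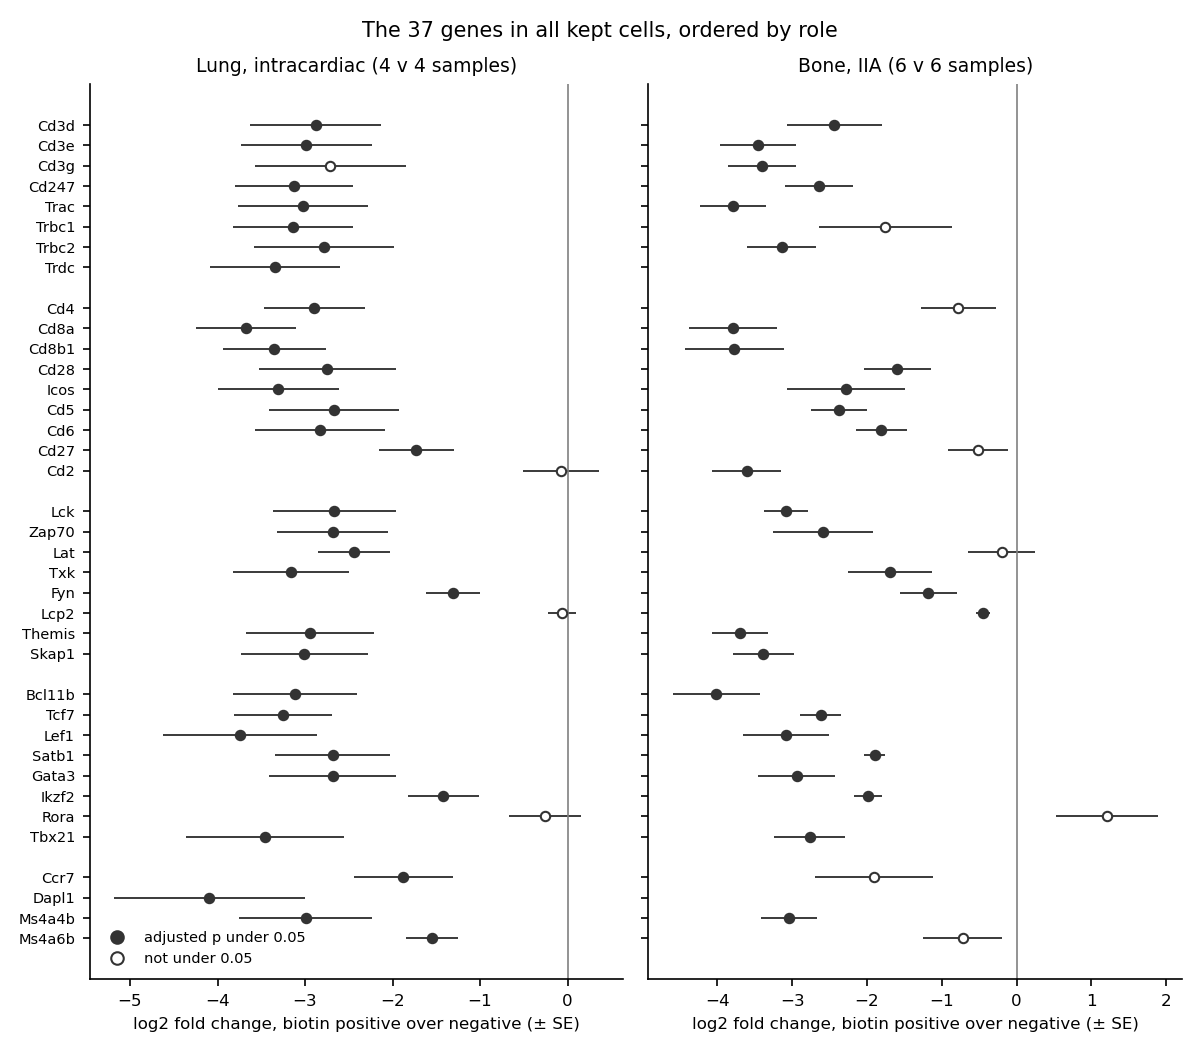
Log2 fold change of each gene, biotin positive over negative, with its standard error (x axis) for genes ordered by role (y axis), in lung after intracardiac injection (left) and in IIA bone (right). Filled points have an adjusted p under 0.05: 33 of 37 in lung and 28 of 35 tested in IIA bone, all of them to the left of 0.

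In IIA bone, 28 of 35 tested members were lower in the positive sort and none was higher. Trdc and Dapl1 had too few counts to be tested, with 3 UMIs each over the 6 positive samples against 154 and 50 in the negative ones. The median log2 fold change was -2.59 against 0.08 over all 12625 genes, and 23.2% of all genes tested were called lower by the same test. In 20 members, and in 8.63% of all genes tested, the positive samples lay lower without overlap. By role, 6 of 7 receptor chains, 7 of 9 coreceptors, 7 of 8 signalling genes and 7 of 8 nuclear factors were lower, but only 1 of 3 homing and membrane genes, Ms4a4b (-3.04 ± 0.37).

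The chromatin organiser Satb1 had 76.0, 93.7 and 107 CPM (lowest, median and highest) in the 6 negative and 23.4, 27.3 and 41.2 in the 6 positive samples. The sorts were well separated, with a log2 fold change of -1.90 ± 0.14 (edgeR adjusted p = 2.76e-06). Satb1 was not confined to T cells: pooled IIA levels were 367 CPM in 1004 T cells and 157 in 987 B cells. They were 106 CPM in 8806 neutrophils and 65.2 in 5458 cells of unnamed clusters. The part of these cells in the Satb1 difference was not tested. Lck had 9.02, 18.4 and 24.0 CPM against 1.61, 2.18 and 4.65 (-3.08 ± 0.30, edgeR adjusted p = 9.77e-06), and Themis 4.36, 6.83 and 12.9 against 0.336, 0.569 and 1.40 (-3.70 ± 0.37). Trac had 3.48, 7.37 and 8.21 CPM against 0.143, 0.660 and 1.30 (-3.79 ± 0.45, edgeR adjusted p = 3.69e-05). No positive sample reached the lowest negative one for any of these 4 genes. Bcl11b had the largest fold change of the set, -4.01 ± 0.58, and the Helios gene Ikzf2 (-1.98 ± 0.19), Tcf7 (-2.62 ± 0.28), Skap1 (-3.39 ± 0.41), Cd2 (-3.61 ± 0.46) and Cd3g (-3.40 ± 0.46) were lower without overlap too.

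The 7 members not called in IIA bone were Trbc1, Cd4, Cd27, Lat, Rora, Ccr7 and Ms4a6b. Rora had 3.596, 7.67 and 10.5 CPM in the negative and 2.36, 9.58 and 60.2 in the positive sort, the only positive fold change (1.21 ± 0.68, edgeR adjusted p = 0.156). Lat had a fold change of -0.20 after TMM scaling but a higher mean CPM in the positive sort, 11.2 ± 10.1 against 10.3 ± 2.64 (SD, n = 6 each). Ccr7 had 3.54, 5.75 and 9.17 CPM against 0, 0.358 and 5.99 (-1.90 ± 0.79, edgeR adjusted p = 0.0616), with positive replicates 1 and 3 inside the negative range. Of the other receptor signalling genes 25 were lower and 2 higher of 42 tested, among them Cd96 (-2.52), and of naive genes 11 were lower and 1 higher of 19, led by Nsg2 (-3.78) and Bach2 (-3.10). Effector and memory genes changed less, with 8 lower and 1 higher of 25 tested and a median of -0.47. Beside them 10 of 11 B cell markers, 13 of 15 neutrophil markers and 7 of 13 monocyte markers were lower, 4 of 11 NK cell markers were lower and 1 higher, and 9 of 10 macrophage markers were higher. Their part was not tested. With the replicate number as a block 31 members and 24.4% of all genes were called lower.

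Intracardiac bone gave no call: 0 of 37 members passed edgeR's test, 0 had an unadjusted p under 0.05 (7.84% of all genes did), DESeq2 called 0, and 0% of the 12533 genes tested were called lower. The fold changes were negative for 34 members with a median of -0.92 against 0.01 over all genes, but with a median 95% interval 3.62 log2 units wide. Ms4a4b, the member with the smallest p (0.0550), had 139, 31.6, 25.9 and 14.1 CPM in the negative and 42.4, 13.7, 9.12 and 13.3 in the positive sort. Cd3e had 41.4, 10.9, 7.12 and 1.99 CPM against 15.8, 4.08, 2.46 and 2.92. In both genes replicate 1 was the highest of each sort, and the sorts overlapped. Within each replicate number the summed level was lower in the positive sort in 4 of 4 pairs, by little in numbers 2 and 4, and the fit with the number as a block called 0 members. Without negative replicate 1, in the fit without the block, the median of the members turned to 0.21.

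In brain 0 of 36 tested members passed edgeR's test (1 at an unadjusted p under 0.05, as were 21% of all genes), and 0.181% of 11064 genes were called lower. The median was -0.03 over the members and -0.03 over all genes. With 1 sample left out, the members' median ran from -1.07 to 0.14. No member separated the sorts. Satb1 came nearest, with 53.7, 70.8, 57.5 and 34.9 CPM in the negative and 32.9, 26.8, 44.4 and 24.4 in the positive sort (-1.05 ± 0.27, edgeR adjusted p = 0.0683), and DESeq2 called it and 3.17% of all genes lower. Blocking on the replicate number, edgeR's test called Gata3 (-2.11, adjusted p = 0.0193) and 1.31% of all genes lower, and not Satb1. Gata3 had 6.53, 13.6, 59.8 and 5.76 CPM against 0.433, 4.98, 23.3 and 1.83.

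In liver 34 of 36 tested members had a negative fold change, with a median of -1.74 against 0.02 over all genes, yet none passed edgeR's test after adjustment, as with 0% of the 11854 genes tested, and the smallest adjusted p was 0.120. The positive samples lay lower without overlap in 19 members and in 1.29% of all genes. At an unadjusted p under 0.05, 25 members and 4.83% of all genes were lower by edgeR's test, and DESeq2's adjusted test called 19 members and 0.945% of all genes lower. Txk had 34.7, 35.5, 50.9 and 32.7 CPM in the negative and 9.30, 1.57, 9.42 and 2.07 in the positive sort (-2.87 ± 0.52). Cd3e had 30.01, 23.2, 31.0 and 22.2 CPM against 11.1, 2.14, 12.6 and 4.14 (-1.96 ± 0.48). All 4 positive samples lay below all 4 negative ones for both genes. The positive fold changes were those of Fyn (0.34) and Rora (0.95). Markers of other cells had medians of -2.70 (NK cell), -1.06 (B cell), -0.74 (monocyte), -0.23 (neutrophil) and 4.05 (macrophage). None of these markers was called, and their part was not tested. Leaving out positive replicate 2 gave 4 calls, Cd3e, Cd3g, Ms4a4b and Txk, among 0.0976% of all genes called lower.

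Whether the difference between sorts itself differed between tissues was tested in 1 model of all 32 intracardiac samples. For lung against the mean of the other 3 tissues, the members' median was -1.78, 35 of 37 values were negative and 21 were negative with an unadjusted p under 0.05, as were 7.09% of all genes, but none passed edgeR's adjustment, while 2.54% of 13963 genes did in either direction. Icos was nearest (-3.30 ± 1.02, edgeR adjusted p = 0.0851), followed by Satb1 (-1.69 ± 0.54, edgeR adjusted p = 0.0988), and DESeq2 called these 2 and 4.47% of all genes. For bone against the other tissues the median was 0.77, and ran from -0.26 to 1.73 with 1 sample left out. By edgeR's test 0 of 37 members and 0% of all genes passed, and DESeq2 called 0 members. Satb1 (1.14) was the 1 member with an unadjusted p under 0.05. Blocking on the replicate number, edgeR's test called 1 member in lung, Lef1, and 6.14% of all genes. Lef1 was at -2.64 without the block (adjusted p = 0.235).

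Within the T cells themselves, the tagged and untagged cells of the same tissue gave no member called by edgeR's test in any intracardiac tissue. Bone had 36 members tested (4 against 4 samples), brain 35, liver 36 (2 against 4 samples, the others having under 10 T cells) and lung 36 (3 against 4). Unadjusted p-values under 0.05 numbered 0 for bone, 3 for brain, 1 for liver and 3 for lung T cells, beside 2.29%, 3.59%, 5.02% and 3.31% of all genes tested, and DESeq2 called 0 members in each. Of all genes tested, the same test called 0% of 2971 (bone), 0.0285% of 3514 (brain), 0% of 3921 (liver) and 0% of 6487 (lung). The 95% interval of the log2 fold change lay within 1 of 0 for 27 members (bone), 22 (brain), 11 (liver) and 27 (lung); for the rest the interval reaches further than a log2 fold change of 1.

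Cd8a in lung T cells had the smallest unadjusted p of the 3 lung members under 0.05 and did not pass the adjusted threshold. Untagged lung T cells had 44.0, 50.3, 80.0 and 99.5 CPM in replicates 1 to 4, and tagged ones 17.2, 16.1 and 18.8 CPM in replicates 1, 3 and 4. The sorts did not overlap, but the positive values rest on 11 UMIs, and the log2 fold change was -2.02 with a 95% interval from -2.95 to -1.08 (edgeR unadjusted p = 0.000516, adjusted p = 1.00). Without the filter on low counts edgeR called Cd8a and Dapl1, among 0.276% of genes. Its partner Cd8b1 had a log2 fold change of -0.83 and Tcf7 one of -0.66, each with an interval below 0. The T cell class of lung differed in cluster make-up between the sorts: cluster 3, with pooled levels of 538 CPM for Tcf7, 285 for Cd8b1 and 135 for Cd8a, held 35.9%, 0% and 0% of the tagged T cells of replicates 1, 3 and 4 (64, 36 and 47 cells) against 62.5%, 7.53% and 7.78% of the untagged ones. The counts of 0 allow shares of up to 8.33% and 6.38%, for counting error only. Cluster 24 had 175 CPM for Cd8a and 281 for Cd8b1. It held 17.2%, 30.6% and 36.2% of tagged against 8.96%, 31.6% and 27.3% of untagged T cells. Cluster 22, with 8.36 CPM for Cd8a, held 32.8%, 61.1% and 61.7% of tagged against 22.7%, 58.6% and 61.1% of untagged ones. The members were not left out of the clustering, so cluster shares, here and for brain below, are no separate evidence. The part of these clusters was not tested. In brain T cells Gata3 had 157, 275, 443 and 108 CPM in the negative and 15.8, 115, 95.5 and 52.7 in the positive sort, with overlap (-1.74, 95% interval -2.84 to -0.63), and it was called when edgeR's model blocked on the number (-1.87, adjusted p = 0.00201), among 0.768% of genes. The summed markers of group 2 innate lymphoid cells in the same T cells were 341, 700.4, 2597 and 495 CPM in the negative sort. In the positive sort they were 173, 644, 195 and 263 CPM (Rxrg, Il13 and Il5 at 0), lower in 4 of 4 numbers. These positive sums rest on 11, 56, 49 and 35 UMIs, of which Ramp1 gave 6, 10, 38 and 31. Calca gave 43 of the 56 in positive replicate 2, and 1013 of the 1792 in negative replicate 3. The part of these markers was not tested. Cd4 in brain T cells was at -1.29, without overlap, with 15 UMIs in the positive sort. Here too the clusters differed: cluster 24, with pooled levels of 32.7 CPM for Cd4 and 67.6 for Gata3, held 33.3%, 42.9%, 61.4% and 79.3% of tagged against 20.2%, 11.5%, 32.8% and 51.0% of untagged brain T cells in replicates 1 to 4. Cluster 22, with 143 CPM for Cd4 and 242 for Gata3, held 20.0%, 38.1%, 35.2% and 20.7% against 28.4%, 36.5%, 57.4% and 40.2%. Their part was not tested. In bone T cells Lat was nearest to a change (0.48, unadjusted p = 0.0532 by edgeR), with 269 ± 43.5 CPM in the positive and 178 ± 29.0 in the negative sort (SD, n = 4 each), without overlap.

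In the IIA bone only 1 positive sample had 10 T cells or more, so the comparison at that minimum could not be run. A fit on all samples with at least 4 T cells, added after the data were seen, tested 33 members and called 1 of them, Rora (-2.97 ± 0.65, edgeR adjusted p = 0.0451), among 0.556% of 3596 genes. Rora had 4 UMIs in the 48 positive T cells against 302 UMIs in the negative sort, and DESeq2 called Themis in its place, among 1.59% of genes. Without positive replicate 2, whose 7 cells named T cells had a median of 28599 UMIs, Rora was at -2.08 (edgeR adjusted p = 0.436) and no member was called. With the replicate number as a block Rora was at -2.81 (edgeR adjusted p = 0.238), and 0 members and 0.0278% of genes were called.

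Across tissues, 2 members differed between untagged T cells in the fit of all 16 negative samples without a replicate block. Icos, the costimulator of activated T cells (chr1:60977927-61000320, plus strand), had 284, 305, 296 and 276 CPM in lung T cells. Bone T cells had 59.8, 80.0, 106 and 66.3 CPM, those of brain 111, 171, 172 and 136, and those of liver 66.3, 171, 223 and 152. Lung lay above all 12 other samples, and bone lay low but overlapped liver. Against the mean of the other 3 tissues Icos was higher in lung (1.28 ± 0.20, edgeR adjusted p = 0.0319) and lower in bone (-1.27 ± 0.25, edgeR adjusted p = 0.0423). Gata3 (chr2:9857078-9890034, minus strand) was higher in brain (1.61 ± 0.28, edgeR adjusted p = 0.0198), with 157, 275, 443 and 108 CPM against 45.6 to 165 in the 12 others. These were the single members called in lung, bone and brain, where 0.014%, 0.196% and 0.112% of 7127 genes were called. In liver 0 members were called by edgeR or DESeq2 (1 at an unadjusted p under 0.05), as were 0% of genes.

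The Icos calls were lost when clusters were found with the 37 genes left out, where lung Icos was at 1.08 (edgeR adjusted p = 0.521) and bone Icos at -0.81 (adjusted p = 0.737). That T cell class was another set of cells, 3327 in place of 4877, while a cluster of 2709 cells led by Gzma and Ccl5 stayed unnamed because T cell and NK cell markers tied in it. The lung call was also lost without any 1 of the 4 lung samples, of bone replicates 1, 2 or 4, or of brain replicate 4, with log2 fold changes of 1.22 to 1.32. The bone call was lost without any 1 of the 4 bone samples, lung replicates 1, 2 or 3, brain replicates 2 or 3, or liver replicates 2 or 4, with log2 fold changes of -1.42 to -1.10. These refits carried no replicate block, and samples were not left out of the blocked fit. With the replicate number as a block, 6 members were called in bone, among 1.91% of genes: Icos (-1.24), Rora (-1.67) and Lat (-0.50) were lower, and Cd27 (0.75), Lck (0.48) and Ms4a4b (0.61) higher. Rora had 61.6, 61.6, 87.5 and 91.7 CPM in bone against 104 to 594 in the 12 other samples, without overlap. The block gave 4 calls in lung, among 1.3% of genes, adding Cd4 (0.65), Cd28 (0.51) and Ccr7 (1.05), all higher. Cell composition differed beside these contrasts. Cluster 22, with high Icos and Rora, held 7.43% to 24.1% of untagged T cells of bone, 28.4% to 57.4% of those of brain, 19.9% to 58.0% for liver and 22.7% to 61.1% for lung, so bone lay low while the shares of lung overlapped those of brain and liver. The members were not left out when these clusters were found, so the shares are no separate evidence. The summed NK cell markers (12 of 13 detected, Khdc1a at 0) ran from 841 to 2538 CPM in bone T cells against 359 to 1528 in the other tissues. Their part in the contrasts was not tested.

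Gata3 in brain T cells moved with markers of group 2 innate lymphoid cells, which carry Gata3 and Rora but no antigen receptor. All 10 of these markers were detected in brain (Il5 was at 0 in bone, Rxrg and Il13 in liver), and their summed level was 341, 700.4, 2597 and 495 CPM in brain replicates 1 to 4, against 79.9 to 246 in bone, 131 to 370 in liver and 260 to 389 in lung. In brain replicate 3 Calca gave 1013 of the 1792 UMIs of that sum, and in bone replicate 1 Ramp1 gave 169 of 243. Il1rl1 (3.14), Hs3st1 (4.54) and Lpcat2 (2.05) of that list were called higher in brain by the same test, beside Hes1 (4.81), Rnf128 (3.52), Ccdc184 (4.54) and Cd81 (1.44). Replicate 3 was highest in both Gata3 and these markers, and without it Gata3 was at 1.08 (edgeR adjusted p = 0.626). The call was also lost without brain replicate 2 (1.58) and without bone replicate 1 (1.57). The part of such cells in the Gata3 level was not tested.

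**Figure D4:**
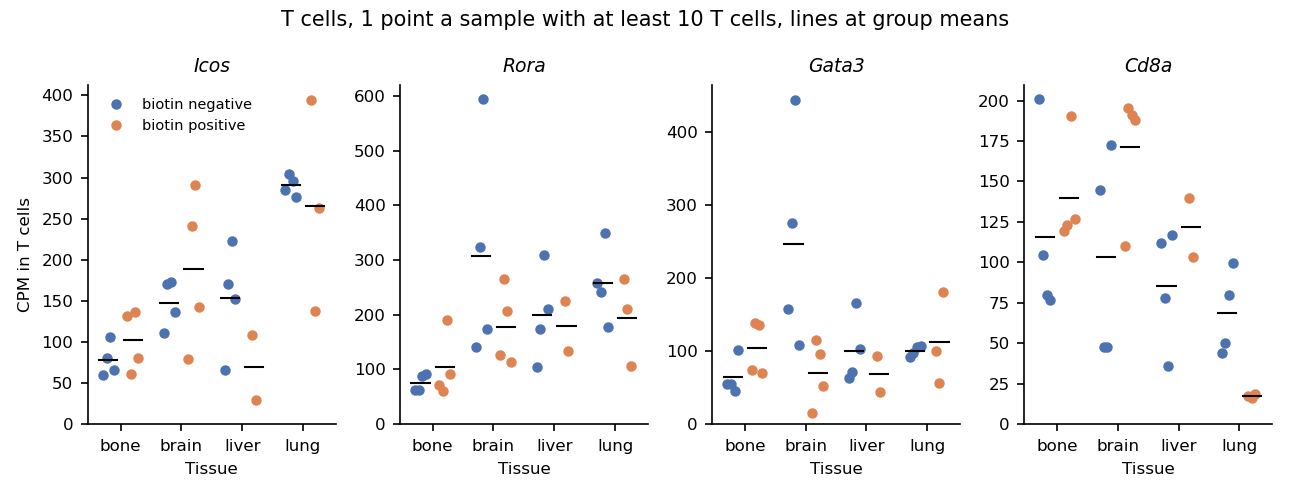
Level of Icos, Rora, Gata3 and Cd8a in CPM within T cells (y axis) by tissue (x axis), for biotin negative (blue) and positive (orange) samples with at least 10 T cells, 1 point a sample with a line at the group mean. Untagged lung T cells hold Icos between 276 and 305, untagged bone T cells hold Rora between 61.6 and 91.7, and tagged lung T cells hold Cd8a between 16.1 and 18.8.

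Within untagged T cells, members also differed by replicate number. In the 16 negative samples 19 of 37 members differed between the 4 replicate numbers when tissue was in the model (edgeR's quasi-likelihood F test, a test added after the data were seen), as did 18.2% of all 7127 genes. The 5 members with the smallest p were Lef1, Dapl1, Satb1, Tcf7 and Ccr7, each higher in numbers 1 and 2. Lef1 had 291, 264, 381 and 369 CPM in bone, brain, liver and lung of number 1 and 361, 311, 388 and 282 in number 2, but 122, 65.2, 101 and 113 in number 3 and 61.2, 87.4, 44.8 and 89.3 in number 4. All 8 samples of numbers 1 and 2 lay above all 8 of numbers 3 and 4. Dapl1 had 190.3, 133, 211 and 117 CPM in number 1 and 183, 86.8, 138 and 102 in number 2, against 26.6, 8.70, 10.8 and 21.3 in number 3 and 0, 14.4, 4.48 and 25.7 in number 4, again without overlap. The adjusted p was 6.02e-07 for Lef1 and 1.08e-06 for Dapl1 in edgeR's F test.

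Satb1 had means of 447 ± 149.6, 538 ± 70.8, 187 ± 39.0 and 108 ± 17.2 CPM in numbers 1 to 4 (SD, n = 4 each), and Tcf7 of 346 ± 59.1, 483 ± 31.1, 219 ± 58.0 and 224 ± 33.5. Ccr7 had 221 ± 169, 178 ± 12.5, 43.7 ± 23.6 and 49.7 ± 33.6. Most other members that differed were highest in number 4: these were Cd28, Zap70, Cd3g, Trbc1, Trbc2, Trdc, Cd6, Cd2, Lck, Ms4a4b and Ms4a6b. Cd28 had 174 ± 51.7, 229 ± 51.0, 242 ± 78.0 and 292 ± 60.2 CPM, and Zap70 66.6 ± 9.22, 68.4 ± 12.2, 78.8 ± 27.0 and 107 ± 19.8. Lcp2, Rora and Fyn were highest in number 3, Fyn with 136 ± 12.6, 117 ± 20.5, 207 ± 27.5 and 182 ± 7.75 CPM.

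Genes of the wider lists differed between the numbers too, beside 18.2% of all genes, in a test that gives no direction. Of 20 further naive genes 12 differed, with Igfbp4 at 124, 116, 27.9 and 18.8 CPM in numbers 1 to 4 and Actn1 at 94.0, 137, 38.1 and 26.5. Of 30 effector and memory genes 20 differed, with the granzyme Gzmk at 11.3, 11.7, 98.6 and 181 CPM, Ifng at 23.0, 8.45, 107 and 119 and the chemokine Ccl5 at 1925, 1557, 6887 and 8240. Of 44 further receptor signalling genes 12 differed. Cluster 3, which was high in Lef1 and Dapl1, held 47.8% to 62.5% of the untagged T cells in the samples of numbers 1 and 2 and 3.70% to 10.6% in those of numbers 3 and 4, so the T cell class was made up of different clusters. Its cells were clustered on these genes, so the shares are no separate evidence. Other measures differed between the numbers as well. Of the markers tested, 8 of 8 macrophage, 6 of 6 monocyte, 5 of 8 B cell, 4 of 12 NK cell and 3 of 15 neutrophil markers differed in T cells. Macrophage markers summed to 65.9 to 74.5 CPM in number 1, 654 to 794 in number 2, 152 to 259 in number 3 and 26.9 to 94.6 in number 4. Neutrophil markers summed to 1910.0 to 9825, 3583 to 29590.0, 9070 to 34208 and 2923 to 31733 CPM in numbers 1 to 4, and without the 2 mixed clusters to 1484 to 1938, 3583 to 3981, 5170 to 6931 and 2297 to 2923. NK cell markers summed to 686 to 1512, 359 to 841, 638 to 2046 and 1269 to 2538 CPM, and the median depth of T cells was 3326 to 4136, 2991 to 3268, 2301 to 2967 and 2797 to 3272 UMIs. Their part was not tested, and what the numbers stand for (mice, days or pools) is not given in the labels used here. Without the brain samples 11 members and 12.2% of genes differed, and without the liver samples 10 members and 9.84% of genes, among them Lef1, Dapl1, Satb1, Tcf7 and Ccr7 in both cases.

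**Figure D5:**
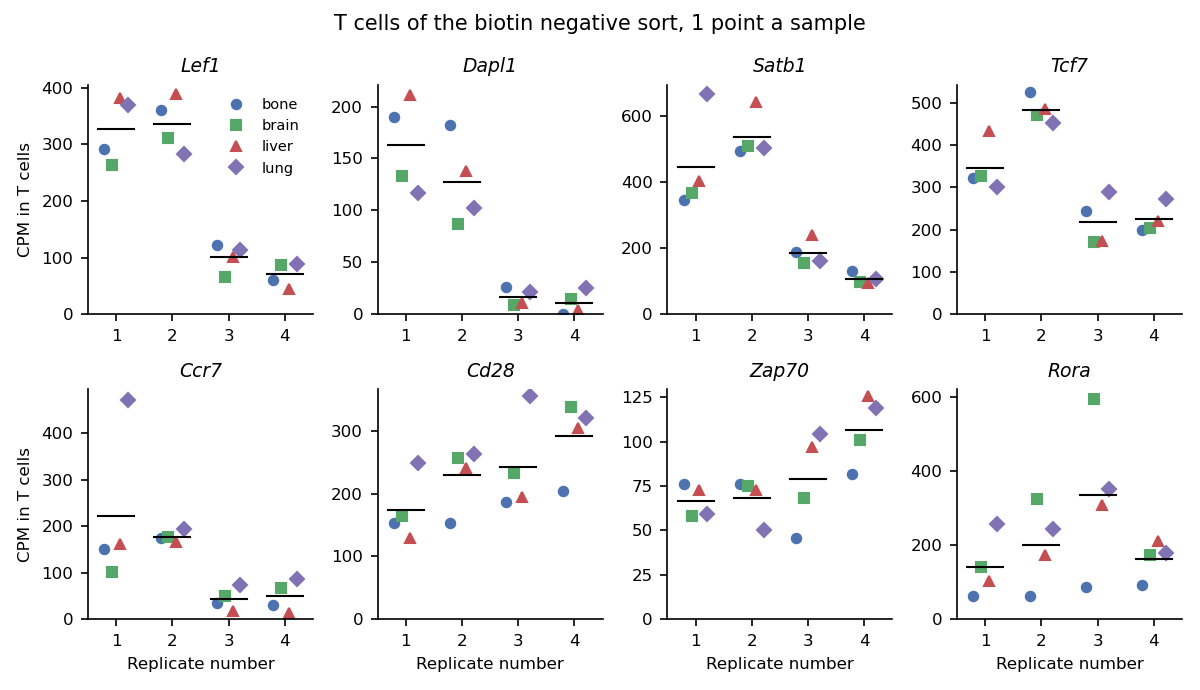
Level of 8 members in CPM within untagged T cells (y axis) by replicate number (x axis), 1 point a sample, colour and shape by tissue, with a line at the mean of each number. Lef1, Dapl1, Satb1, Tcf7 and Ccr7 have higher means in numbers 1 and 2, whereas Cd28 and Zap70 have their highest mean in number 4 and Rora in number 3.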

How the data were processed

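The intracardiac libraries (CellPlex) were deposited demultiplexed, per the file headers of the submitters' readme, and the IIA bone (TotalSeqC hashtags) as 1 mixed library; Cell Ranger, Seurat and build mm10 are named per the submitters' processing notes, without versions. The deposited matrices hold raw UMI counts per gene and cell, with hashtag counts in the IIA matrix, as made by the authors; no source used here gives the settings of the counting. The 37 members and the other gene lists were chosen with earlier results of these data known.

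Cells with at least 500 UMIs, 200 genes and at most 15% mitochondrial UMIs were kept; IIA cells were given to samples by their hashtag, which needed 10 counts and 3 times the second. The matrix and the readme spell the hashtag names differently and they were matched by number, so every IIA sort and replicate rests on that match. Cells were clustered with scanpy 1.11.5 (2000 variable genes, 30 components, 15 neighbours, Leiden resolution 1) and clusters were named from marker lists. Doublets were kept, and an alternative removed the 5% of cells with the highest Scrublet score. Counts were summed per sample over all cells or over T cells (at least 10), and tested with edgeR 4.0.16 (TMM, filterByExpr, quasi-likelihood test, Benjamini-Hochberg over all genes, threshold 0.05) in R 4.3.3; DESeq2 1.42.0 was an alternative. Fold changes are positive over negative, or a tissue over the mean of the other 3. Standard errors and 95% intervals come from the quasi-likelihood fit. Named genes were the members with an adjusted p under 0.05 (at most 10 per comparison in full), each member once by its T cell level, and up to 4 called genes of each other list by fold change (1 gene is not reported here); further members were named for their sample values after these were seen. Tested on simulated counts, the T cell fit between tissues recovered 97.9% of genes changed by 2 log2 units and 64.6% of those changed by 1; the fit over all lung cells recovered 82.5% and 8.16%, that between sorts of lung T cells 78.0% and 11.6%, and that of bone T cells 97.8% and 45.7%.

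Replicate numbers are shared between groups in the labels. Deviations of same-numbered samples from their group means correlated above 0.1 in every pair for bone (0.32 to 0.75), brain (0.35 to 0.69), liver (0.34 to 0.71) and the negative T cells (24 of 24 pairs), which meets the bar for pairing; their main fits carry no block, and the blocked value is printed where it changes a call. The bar was met in 2 of 4 pairs for lung and 5 of 6 for IIA bone. Whether same-numbered samples came from 1 mouse is not stated in the labels used here, and for lung and IIA bone the block is given as an alternative. Whether samples of 1 group came from separate mice is not stated, so p-values measure the spread between these samples. Replicates of a T cell sum below 10 cells were left out.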

Additional observations from a re-analysis of the deposited data

Results flagged for a closer look

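Among 71 groups of 4 to 10 samples examined for 1 sample far from the rest, 3 had such a sample, where chance gives about 1 in 20 groups. The summed level of the 37 genes over all cells of negative intracardiac bone was 1464 CPM in replicate 1 against 225 to 418 in the 3 others. Over all cells of negative brain it was 1446 CPM in replicate 3 against 713 to 783 in the others. Within T cells of the negative IIA bone it was 9829 CPM in replicate 3 against 8524 to 9008 in the 5 others.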

How the results depend on the processing

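Counts of called members in IIA bone were 28 to 31 under the alternatives run, which did not include leaving out a sample, and those in lung 32 to 34 apart from leaving out samples, which gave 12 to 34. No member called in lung, in IIA bone or in T cells reversed its direction; single members of bone, brain and liver were not followed in this way. In all cells of brain the replicate block, no low-count filter and DESeq2 each gave 1 call; in liver DESeq2 gave 19 and leaving out a sample 0 to 4. In T cells between sorts, brain gave 1 with the block and 1 without the filter, liver 1 and lung 2 without the filter, and IIA bone 0 with the replicate block and 0 to 2 with a sample left out. For bone T cells against other tissues the block gave 6, among 1.91% of genes. No filter gave 4, DESeq2 3, removing high doublet scores 2 and removing mixed clusters 2. Clusters found without the members gave 0 and leaving out a sample 0 to 2, beside 0 to 32 of all genes. For brain T cells no filter gave 2 and leaving out a sample 0 to 1, beside 2 to 21 of all genes. For lung T cells the block gave 4, among 1.3% of genes, no filter 2 and clusters found without the members 0. Leaving out a sample there gave 0 to 1, beside 0 to 4 of all genes. A count without a share of all genes beside it, here or above, does not show whether members were called more often than other genes. Between replicate numbers 11 members were called without brain and 10 without liver. For the lung difference between tissues the block gave 1 and DESeq2 2. The cause of these shifts was not tested. In all cells of lung and IIA bone, where not every pair of same-numbered samples correlated above 0.1, the replicate block gave 33 and 31 calls against 33 and 28; it changed no other count than those given. Liver T cells with at least 20 cells, or with clusters found without the members, left 1 positive sample and were not run, nor were the alternatives for IIA T cells at 10 cells.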
